A study of Mus musculus with 8 samples.

Results

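Mouse bone-marrow derived macrophages kept for 24 h with bacterial lipopolysaccharide and interferon gamma together (LPS plus IFNg) were compared directly with macrophages kept for the same time with the cytokine IL4. The members of the comparison are the 3 LPS plus IFNg and the 3 IL4 libraries, 6 of the 8 libraries of the series, chosen by the group line of the deposited table. It covers 13615 named genes, which are all those whose value was not the same in every library. The cells of both groups were grown from marrow of C57BL/6 mice, an inbred strain, and the labels name no other difference between the groups than the agent added. LPS and IFNg were given together, so what each contributed cannot be told apart. The 2 remaining libraries are unstimulated macrophages of the same strain and time, and their values are given beside the others for reference. They are also part of the fit, where they enter the estimate of the spread between libraries. RNA was read by 3′ end sequencing, in which only the end of each polyadenylated transcript is read, and values are log2 expression after the authors' quantile normalisation, so that a difference of 1 is a doubling. Every log2 difference below is LPS plus IFNg minus IL4, so positive values mean higher with LPS plus IFNg. The labels name no animal or culture for a replicate, and the p-values therefore measure only the spread between these libraries, which may be technical.

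The 2 treatments are the standard ways to drive a cultured macrophage towards opposite programmes. Lipopolysaccharide, a cell wall component of Gram-negative bacteria, is sensed by Toll-like receptors and activates NF-kB and interferon regulatory factors. Interferon gamma acts through Janus kinases, and together they produce the classically activated macrophage, known for nitric oxide, inflammatory cytokines and killing of microbes. IL4, made by helper T cells and granulocytes in allergy and worm infection, acts through the IL-4 receptor and STAT6 and produces the alternatively activated macrophage, known for arginase, lectins, chitinase-like proteins and tissue repair.

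Depth is not given with values of this kind. Among the 13615 genes, 3204 to 3568 were listed at 0 in an IL4 library and 2964 to 2985 in an LPS plus IFNg library, and the sources used here do not say how zero counts were handled. For the 7283 genes whose mean reached 5, Pearson's r over genes ranged from 0.838 to 0.874 among the IL4 libraries, 0.883 to 0.907 among the LPS plus IFNg libraries and 0.619 to 0.654 between the groups; genes are not independent replicates. Macrophage markers were present in every library. The 20 markers summed to 15.01 to 15.70 on the log2 scale with IL4 and 15.16 to 15.38 with LPS plus IFNg, and Emr1, a surface antigen of mature macrophages, stood at 10.89, 10.62 and 10.18 against 11.46, 11.27 and 10.54. Of the lymphocyte markers, Cd3e, Cd8a, Cd2, Ncr1, Nkg7, Gzma and Gzmb were listed at 0 in all libraries, as were the erythroid genes Hbb-b1, Hbb-b2 and Alas2 and the mast cell genes Mcpt4, Cma1 and Fcer1a. In such bulk samples fewer cells of a type and less RNA per cell cannot be told apart.

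Of the 13615 genes, 804 were higher with LPS plus IFNg (5.91%) and 948 were higher with IL4 (6.96%) at an adjusted p of 0.05 in limma, 12.9% in all. Differences were larger towards LPS plus IFNg. Leaving out called genes with a whole group at 0, 82 differed by 6 or more on the log2 scale towards LPS plus IFNg and 14 towards IL4, and the median size was 2.37 against 1.74. In every called gene the IL4 and LPS plus IFNg libraries lay apart without overlap, as they did in 27.1% of all genes tested. In 116 of the genes higher with LPS plus IFNg every IL4 library was listed at 0, and in 99 of the genes higher with IL4 every LPS plus IFNg library was, so that no fold is given for these. When the libraries were set to equal means of 11 housekeeping genes, 1408 genes were higher with LPS plus IFNg and 526 with IL4, and the median of all genes moved by 0.36. The split between the directions thus depends on the scaling. With equal means of 83 ribosomal protein genes the median moved by 1.19, and 4762 and 291 genes were called. In genes with a mean of at least 5 the median went from -0.05 to 1.43. The called gene Cd200r1 went from -1.47 to 0.01, so that differences up to about that size towards IL4 have no sure direction. With this scaling the median of every list below 0 rose above 0, apart from those of alternative activation, the cell cycle, replication, cytosolic ribosomal proteins and the neutrophil, osteoclast and mast cell markers.

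**Figure D1:**
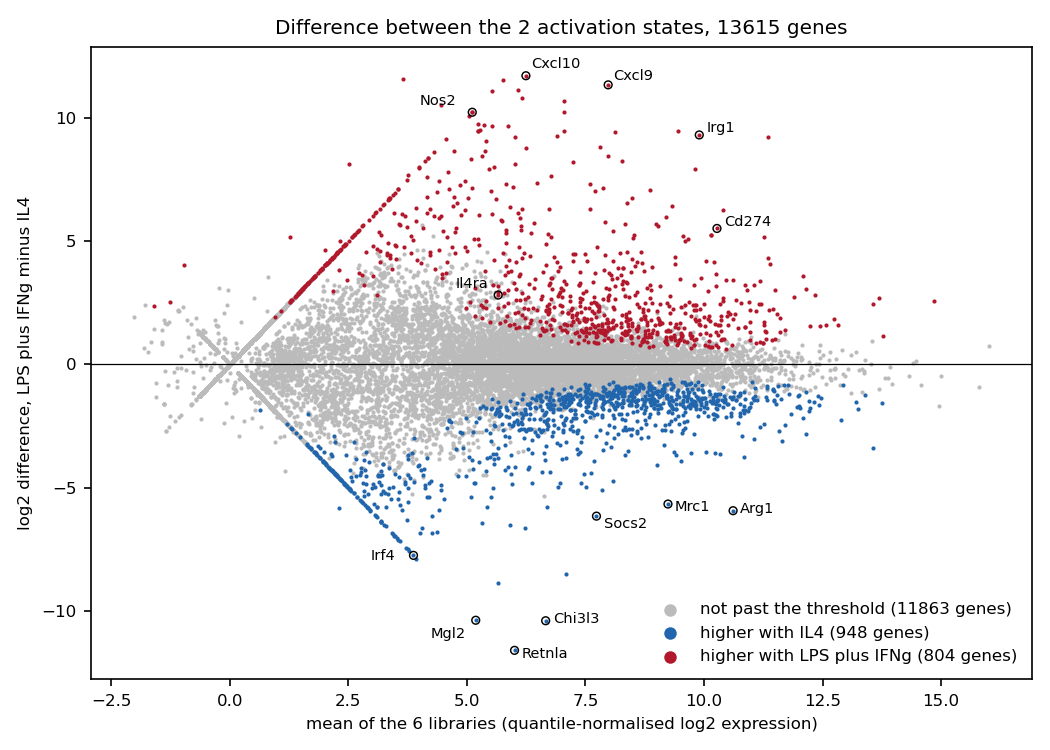
Difference between LPS plus IFNg and IL4 (vertical axis, log2) against the mean of the 6 libraries (horizontal axis, quantile-normalised log2 expression), 1 point per gene. Red points are the 804 genes higher with LPS plus IFNg, blue points the 948 higher with IL4 and grey points the 11863 not past an adjusted p of 0.05; circled genes are named, and the straight diagonal edges are genes with a whole group listed at 0.

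The largest differences towards LPS plus IFNg were in chemokines, interferon-inducible GTPases and antiviral genes. Cxcl10, a chemokine that draws activated T cells, was at 12.08, 11.92 and 12.29 with LPS plus IFNg and at 0.00, 0.00 and 1.17 with IL4 (log2 difference 11.70, SE 0.46, adjusted p = 4.18e-05). Cxcl9, which shares its receptor, was at 13.72, 14.14 and 13.07 with LPS plus IFNg against 1.84, 2.54 and 2.56 (log2 difference 11.33, SE 0.38, adjusted p = 2.39e-05). Unstimulated libraries had 1.56 and 1.86 for Cxcl9 and 4.27 and 3.68 for Cxcl10, so that Cxcl10 stood lower with IL4 than without stimulus in all 3 libraries. Ccl5, a chemokine for T cells and monocytes, stood at 12.42, 11.63 and 12.40 with LPS plus IFNg against 1.42, 2.54 and 1.81. Ifit3, an antiviral protein, was at 11.21, 11.56 and 11.82 with LPS plus IFNg, listed at 0 in every IL4 library, and at 7.27 and 7.52 without stimulus (adjusted p = 1.5e-05). Its neighbour copy I830012O16Rik had 9.62, 10.20 and 10.87 and was also listed at 0 with IL4. Nos2, the inducible nitric oxide synthase, was at 10.06, 10.43 and 10.18 with LPS plus IFNg and at 0 in every other library of the series. Clic5, an intracellular chloride channel protein, was at 11.22, 10.81 and 11.19 with LPS plus IFNg and 0 in all IL4 libraries. Gm4841 and Gbp10 belong to the 12 largest differences too, but IL4 values under 0 (down to -3.49 and -2.46) enlarge them.

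The largest differences towards IL4 were in products of alternative activation and in genes for adhesion, an ion channel and a pentraxin. Retnla, a secreted protein of the resistin family, was at 12.41, 11.51 and 11.47 with IL4 and at 0.63, 0.00 and 0.00 with LPS plus IFNg (log2 difference -11.59, SE 0.58, adjusted p = 0.000109). Chi3l3, a chitinase-like protein also called Ym1, was at 12.22, 11.59 and 11.76 with IL4 against 0.85, 0.88 and 2.66, with 6.51 and 6.08 unstimulated (log2 difference -10.39, SE 0.53, adjusted p = 0.000111). The groups lay on either side of the unstimulated level of Chi3l3. Mgl2, a galactose-type lectin, was at 10.19, 10.76 and 10.16 with IL4 and listed at 0 in the other 5 libraries. Il1rl1, the receptor chain for IL-33, was at 9.50, 10.27 and 10.47 with IL4 against 3.02, 0.62 and 0.00, and the membrane protein gene Tmem26 at 11.11, 11.61 and 11.29 against 0.75, 4.61 and 3.13 (adjusted p = 0.00131 for each). Cdh1, the adhesion protein E-cadherin, had 7.78, 8.11 and 7.72 with IL4 and Scn3a, a sodium channel subunit, 8.66, 7.80 and 6.02; each was listed at 0 in the 3 LPS plus IFNg libraries. Nptx1, a pentraxin known from neurons, had its highest values without stimulus. It stood at 10.39 and 10.61 without stimulus, at 7.31, 8.76 and 6.64 with IL4, and at 0 in the 3 LPS plus IFNg libraries (adjusted p = 0.000412). X99384 had 7.33, 7.63 and 6.54 with IL4 and 7.14 and 6.79 unstimulated, and was likewise at 0 with LPS plus IFNg.

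Promoter sequence is shown for 3 of these extreme genes because interferon and IL4 signals act through short DNA elements. Motifs were searched on both strands in the 250 bases before each start site of the RefSeq promoter table (GRCm38.p6), and a stretch could count for more than 1 motif. The interferon-stimulated response element, searched as GAAANNGAAA, was in 9.98% of the 812 promoter windows of genes higher with LPS plus IFNg, in 2.81% of the 962 windows of genes higher with IL4, and in 2.73% of 13644 windows of all tested genes and 2.98% of 32851 windows in the table. The NF-kB motif GGGANTTTCC was in 1.23%, 0.416%, 0.41% and 0.356% of the same windows. The STAT motif TTCNNNGAA was in 8.5%, 4.89%, 6.21% and 7.02%, and the form TTCNNNNGAA, with the longer spacer known for STAT6, in 6.28%, 5.82%, 4.9% and 5.85%. The table matched 620 and 766 of the called genes, and some genes have several windows. The response element thus stood at a higher share in the first set than in the others, and the longer STAT motif at similar shares in all 4. In the sequences below, from the upstream strand of each gene and 5′ to 3′, capitals mark each match to 1 of the 4 motifs. Cxcl10 lies at chr5:92348890-92349139 on the minus strand and Ifit3 at chr19:34583279-34583528 on the plus strand, and their capitals are response element matches, 1 in Cxcl10 and 2 in Ifit3. Chi3l3 lies at chr3:106167565-106167814 on the minus strand, and its capitals are a TTCNNNGAA match. A match is a description of these letters and not evidence of binding.
Cxcl10: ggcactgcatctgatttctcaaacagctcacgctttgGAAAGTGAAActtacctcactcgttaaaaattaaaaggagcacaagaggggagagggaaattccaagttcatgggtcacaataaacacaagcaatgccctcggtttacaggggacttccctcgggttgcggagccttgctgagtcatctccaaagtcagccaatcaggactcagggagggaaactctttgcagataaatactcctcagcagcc
Ifit3: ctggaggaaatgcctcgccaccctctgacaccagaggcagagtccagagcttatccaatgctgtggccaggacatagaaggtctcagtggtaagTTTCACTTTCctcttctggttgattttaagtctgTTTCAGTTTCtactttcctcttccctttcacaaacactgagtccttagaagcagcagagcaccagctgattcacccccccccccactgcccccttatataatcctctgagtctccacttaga
Chi3l3: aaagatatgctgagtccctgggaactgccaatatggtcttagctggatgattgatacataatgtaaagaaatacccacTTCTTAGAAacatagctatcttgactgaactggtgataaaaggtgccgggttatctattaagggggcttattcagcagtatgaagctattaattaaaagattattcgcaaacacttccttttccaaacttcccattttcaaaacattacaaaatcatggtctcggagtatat

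Genes of alternative activation were mostly higher with IL4, in 35 of 48 members (72.9%). With LPS plus IFNg 3 were higher (6.25%, near the 5.91% of all genes), and 10 did not pass. The median log2 difference was -4.44 (-3.86 without members that had a whole group at 0) against 0.00 for all genes. Arg1, which splits arginine into ornithine and urea, was at 13.64, 13.41 and 13.69 with IL4 and 7.80, 7.57 and 7.57 with LPS plus IFNg, against 2.31 and 4.19 unstimulated (log2 difference -5.93, SE 0.43, adjusted p = 0.000305). Both activated groups thus lay above the unstimulated libraries. Mrc1, the mannose receptor, was at 12.51, 11.64 and 12.06 with IL4 against 6.43, 6.63 and 6.17, and the unstimulated level of 11.02 and 10.41 was nearer that of IL4. The lectins Clec10a and Clec7a had log2 differences of -5.09 (SE 0.98) and -2.18 (SE 0.32). Flt1, a receptor for vascular growth factors, was at 9.10, 9.39 and 10.13 with IL4 against 3.98, 3.54 and 1.17. Tgm2, a transglutaminase often used to mark IL4 macrophages, went the other way, with 11.10, 10.42 and 10.89 with LPS plus IFNg and 8.40, 8.86 and 7.98 with IL4 (log2 difference 2.39, SE 0.27, adjusted p = 0.00187). Il4ra, the IL-4 receptor alpha chain, was also higher with LPS plus IFNg (2.81, SE 0.58, adjusted p = 0.019), as was the scavenger receptor Stab1 (1.41, SE 0.32, adjusted p = 0.0273). Stab1 was at 9.55 and 8.91 unstimulated, above every activated library. Slc7a2, which carries arginine into the cell, did not separate the groups, with 11.30, 11.86 and 11.58 with IL4 against 11.64, 11.68 and 11.66 and a 95% interval of the difference from -0.36 to 0.52. Pdcd1lg2, the checkpoint ligand PD-L2, stood at 6.75, 7.12 and 3.89 with IL4 against 4.81, 5.94 and 5.27 (adjusted p = 0.766). With genes under a mean of 5 left out of the fit, 23 members were higher with IL4. Without LPS plus IFNg replicate 1 or 3, 1 member was higher with LPS plus IFNg; Il4ra did not pass without any 1 of the LPS plus IFNg libraries, Stab1 without 5 libraries in turn, and Flt1 without IL4 replicate 3 (adjusted p = 0.0502).

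**Figure D2:**
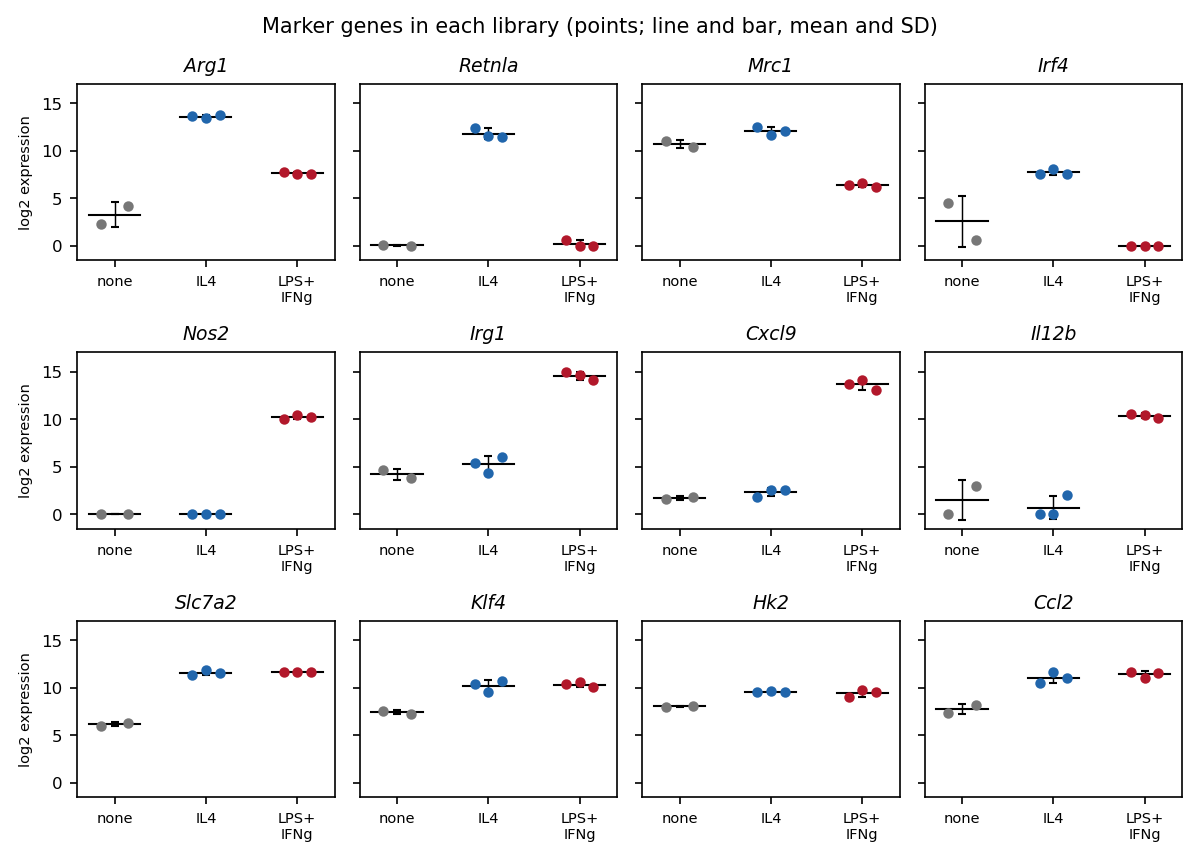
Quantile-normalised log2 expression (vertical axis) of 12 genes in each library without stimulus (grey, n = 2), with IL4 (blue, n = 3) and with LPS plus IFNg (red, n = 3); points are libraries, lines means and bars SD. Arg1, Retnla, Mrc1 and Irf4 are higher with IL4 and Nos2, Irg1, Cxcl9 and Il12b with LPS plus IFNg, while Slc7a2, Klf4, Hk2 and Ccl2 lie at similar levels in both activated groups and above the unstimulated libraries.

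Interferon-inducible GTPases, which attack the vacuoles of intracellular parasites and bacteria, were higher with LPS plus IFNg in 21 of 21 cases, with a median log2 difference of 7.93. Gbp5 was at 11.36, 12.17 and 11.42 with LPS plus IFNg against 0.00, 0.00 and 1.54, and Iigp1 at 12.82, 12.36 and 11.99 against 1.65, 2.33 and 1.17 (adjusted p = 0.00016 and 4.14e-05). Gbp4 stood at 10.97, 11.97 and 11.69 with LPS plus IFNg against 3.76, -1.46 and 0.00. The rows of Tgtp1 and Tgtp2 hold the same values, and the sources used here do not say how reads shared by close copies were counted. Antiviral genes of the interferon response were higher with LPS plus IFNg in 49 of 54 cases and in none with IL4 (51 and 0 at an unadjusted p under 0.05), with a median of 4.50. Oasl1 was at 9.96, 10.09 and 10.19 and Slfn4, a Schlafen protein, at 9.96, 10.55 and 10.10; with IL4 Oasl1 was listed at 0 in every library and Slfn4 in all but IL4 replicate 3, at 1.54. Samhd1, which depletes nucleotides that viruses need, differed less, at 12.96, 13.25 and 13.56 with LPS plus IFNg against 10.67, 10.49 and 10.41 (log2 difference 2.74, SE 0.22). Ifitm2, a membrane protein that hinders viral entry, did not pass (0.96, interval -0.01 to 1.94), and neither did the antibody receptor Trim21 (3.94, adjusted p = 0.0705).

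Transcription factors divided between the states: 15 of 61 were higher with LPS plus IFNg and 12 with IL4, with a median of 0.11. Irf7 and Irf1, which drive interferon genes, were at 11.12, 11.31 and 11.22 and at 12.16, 12.01 and 12.14 with LPS plus IFNg, against 4.19, 3.68 and 4.68 and 7.78, 7.26 and 6.28 with IL4 (log2 differences 7.03 and 4.99). Stat6, the factor of IL4 signalling, did not pass (0.78, interval -0.07 to 1.64, adjusted p = 0.236). Nfkbiz, an inducible NF-kB cofactor, stood at 7.44, 6.30 and 6.45 and was listed at 0 in every IL4 library, with 5.81 and 6.25 unstimulated. Irf4 was at 7.58, 8.07 and 7.58 with IL4 and listed at 0 with LPS plus IFNg, and Batf3 at 7.53, 6.50 and 6.78 against 0 (adjusted p = 0.00366 and 0.00138). Pparg, the lipid-sensing nuclear receptor, had a log2 difference of -5.78 (SE 1.0), and Myc, the growth regulator, was at 10.05, 10.18 and 9.19 with IL4 against 5.54, 4.40 and 5.01 (log2 difference -4.82, SE 0.44, adjusted p = 0.000754), with the unstimulated libraries between at 7.52 and 8.57. Klf4, a factor reported downstream of STAT6, was at 10.37, 9.51 and 10.73 with IL4 and 10.35, 10.56 and 10.04 with LPS plus IFNg, against 7.55 and 7.24 unstimulated, and its difference of 0.11 had an interval from -0.65 to 0.88. Junb, Zeb2 and the kinase Jak1 did not pass either. With ribosomal protein scaling 38 factors were higher with LPS plus IFNg and 8 with IL4.

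Feedback regulators of cytokine signalling took opposite sides within a single family. Among 39 Janus kinase, SOCS and related signalling genes, 9 were higher with LPS plus IFNg and 7 with IL4. Socs3 was at 7.54, 7.71 and 7.39 with LPS plus IFNg against 0.00, 0.00 and 2.26, and Socs1 at 10.91, 10.80 and 11.13 against 8.35, 8.34 and 8.61. Socs1 was at 3.05 and 2.14 unstimulated, so both activated groups lay above it. Socs2 and Cish were higher with IL4, at 11.05, 9.54 and 11.83 against 3.54, 5.01 and 5.42 for Socs2 (log2 difference -6.15, SE 0.71, adjusted p = 0.00201) and with a log2 difference of -4.37 (SE 0.75) for Cish. Dusp4, a MAP kinase phosphatase, and Cblb, a ubiquitin ligase, were higher with IL4 (-2.99, SE 0.31, and -2.88, SE 0.18), and Tnip1, an inhibitor of NF-kB signalling, was higher with LPS plus IFNg (2.77, SE 0.29). The phosphatase Ptpn1 did not pass (0.81, adjusted p = 0.121). Without LPS plus IFNg replicate 2, 5 members were higher with LPS plus IFNg, and with housekeeping scaling 15 were.

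**Figure D3:**
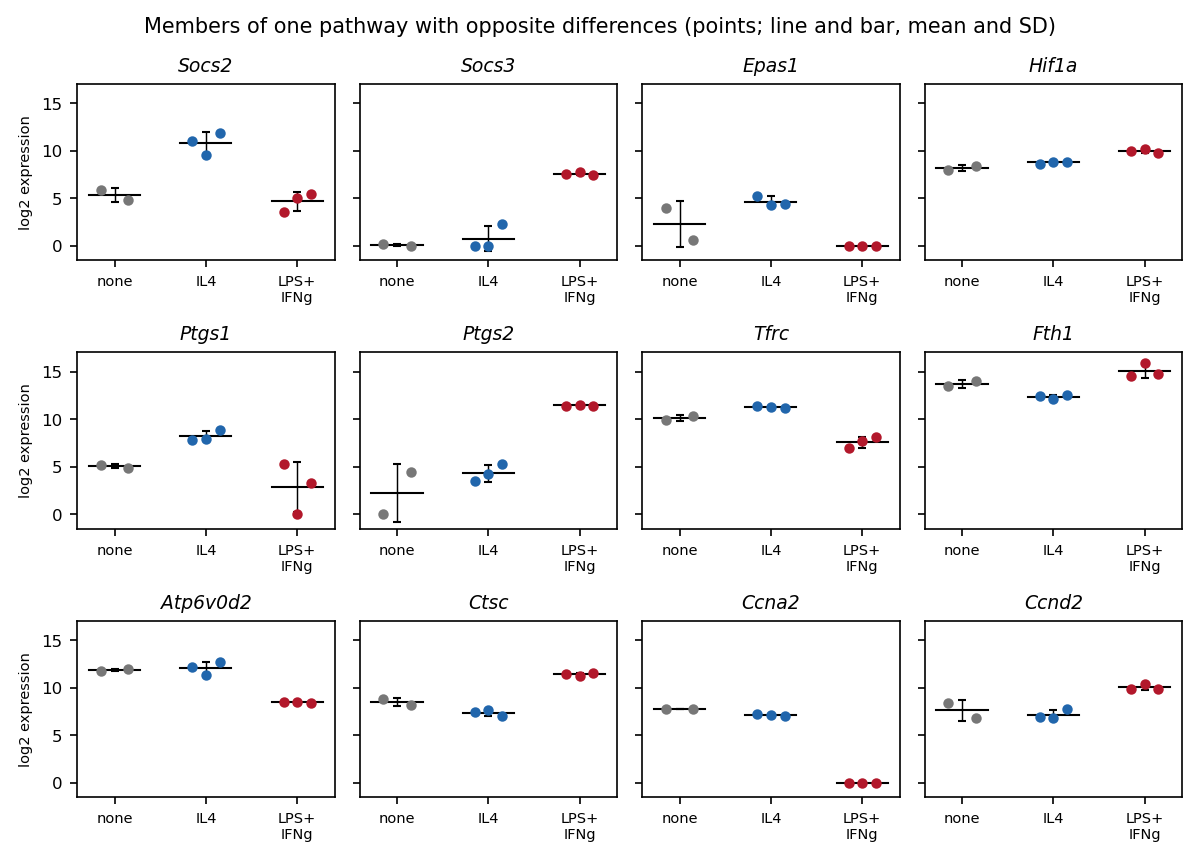
Quantile-normalised log2 expression (vertical axis) of 6 pairs of genes from the same family or pathway, per library without stimulus (grey), with IL4 (blue) and with LPS plus IFNg (red); points are libraries, lines means and bars SD. In each pair the first gene is higher with IL4 and the second with LPS plus IFNg, for example Socs2 and Socs3 or Ccna2 and Ccnd2.

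Of 33 cytokine genes, 11 were higher with LPS plus IFNg (33.3%) and 2 with IL4 (6.06%, near the 6.96% of all genes). Il12b, the shared subunit of IL-12 and IL-23, was at 10.57, 10.39 and 10.10 with LPS plus IFNg against 0.00, 0.00 and 2.05 (log2 difference 9.67, SE 0.96, adjusted p = 0.00109). Il1b had 7.69, 8.63 and 8.80 and Il6 had 6.83, 6.36 and 6.84, and both were listed at 0 in every IL4 library (adjusted p = 0.000559 and 0.000872). Tnf separated less firmly, at 8.88, 9.01 and 9.16 with LPS plus IFNg against 0.00, 5.48 and 5.57, with an adjusted p of 0.0486. Igf1, a growth factor of repair macrophages, and Pdgfa were the members higher with IL4. Igf1 was at 14.09, 13.19 and 13.44 with IL4 against 11.03, 10.39 and 10.77 (log2 difference -2.84, SE 0.29, adjusted p = 0.00129), and at 13.19 and 12.90 unstimulated. Spp1, the secreted protein osteopontin, was among the highest values of every library and did not pass (-0.91, adjusted p = 0.153). Without LPS plus IFNg replicate 2, 7 cytokines were higher with LPS plus IFNg, and with a mean of at least 5 required, 4 were and 5 were higher with IL4, where Spp1 passed (adjusted p = 0.018). Tnf did not pass without either unstimulated library or any 1 of the LPS plus IFNg libraries (adjusted p up to 0.135), nor Pdgfa without unstimulated replicate 2 (adjusted p = 0.0534).

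Chemokines were divided almost evenly, with 7 of 24 higher with LPS plus IFNg and 8 with IL4. Those higher with LPS plus IFNg were led by the interferon-induced group, with Cxcl11 at 9.08, 9.06 and 9.22 and listed at 0 in every IL4 library. Those higher with IL4 included ligands known for drawing eosinophils and helper T cells. Ccl24 was at 4.90, 6.06 and 6.17, and Ccl17 at 4.36, 4.89 and 5.17, and both were listed at 0 with LPS plus IFNg. Ccl22 was at 6.25, 7.28 and 6.31 with IL4 against 1.95, 2.92 and 0.00, and Ccl9 at 12.55, 12.43 and 12.39 against 10.08, 10.14 and 9.95. Ccl2, the main monocyte chemokine, was high in both groups, at 10.44, 11.60 and 11.04 and at 11.60, 10.97 and 11.58, and its difference of 0.36 had an interval from -0.47 to 1.19. With housekeeping scaling, or without IL4 replicate 3 or any 1 LPS plus IFNg library, 5 chemokines were higher with IL4. Of 47 cytokine and chemokine receptors, 10 were higher with LPS plus IFNg (16 with housekeeping scaling) and 5 with IL4. With ribosomal protein scaling 32 and 2 were higher. Il15ra, which presents IL-15 to lymphocytes, was at 8.97, 9.04 and 8.81 with LPS plus IFNg against 4.02, 2.54 and 3.47, and Ccr7, the receptor that guides cells to lymph nodes, at 5.38, 4.61 and 3.88 against 0 in every IL4 library. Ccr2, the receptor for Ccl2, was higher with IL4 (-2.03, SE 0.24, adjusted p = 0.00222), as was the IL-31 receptor Il31ra, at 5.14, 6.87 and 8.62 against 0. With ribosomal protein scaling Ccr2 did not pass (-0.55, adjusted p = 0.169). Ccl2 was then higher with LPS plus IFNg (1.84, adjusted p = 0.00712). The interferon receptor chains Ifnar1 and Ifnar2 did not pass (0.69 and 0.98, adjusted p = 0.202 and 0.188).

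Receptors that sense microbes and their inflammasome partners were higher with LPS plus IFNg in 18 of 37 cases (48.6%). With IL4 2 were higher (5.41%, near the 6.96% of all genes). Clec4e, a receptor for mycobacterial glycolipid, was at 10.69, 10.69 and 10.73 with LPS plus IFNg against 0.00, 0.00 and 3.11, and the formyl peptide receptor Fpr1 at 8.63, 8.85 and 8.55 against 0.00, 0.00 and 3.75. Cd14, which passes LPS to its receptor, was at 8.56, 7.53 and 7.70 with LPS plus IFNg, 5.07, 4.29 and 4.68 with IL4 and 7.22 and 7.88 unstimulated (log2 difference 3.25, SE 0.39, adjusted p = 0.00239). For Cd14 the IL4 libraries were the ones that stood apart from the unstimulated level. Tlr4, the LPS receptor itself, did not pass (-0.23, interval -0.98 to 0.53). Pycard, the inflammasome adaptor ASC, and the lipid receptor Trem2 were higher with IL4 (-1.89, SE 0.33, and -1.53, SE 0.29), though Trem2 did not pass with housekeeping scaling (adjusted p = 0.0794) and neither passed with ribosomal protein scaling (0.368 and 0.951). Mlkl and Mefv, which act in lytic death and pyrin signalling, were higher with LPS plus IFNg. Without LPS plus IFNg replicate 2 or 3, 11 members were higher with LPS plus IFNg. Of 43 Fc receptor, lectin, complement and uptake genes, 12 were higher with LPS plus IFNg and 7 with IL4. Fcgr1, the high-affinity IgG receptor, was at 10.13, 9.70 and 9.85 with LPS plus IFNg against 2.60, 3.52 and 4.62, with 6.74 and 7.37 unstimulated between the groups (log2 difference 6.31, SE 0.51, adjusted p = 0.000497). The complement gene Cfb was at 10.28, 9.66 and 10.40 with LPS plus IFNg against 1.07, 0.00 and 0.00. Mertk, which takes up dying cells and is often ascribed to repair macrophages, was higher with LPS plus IFNg, at 11.38, 11.00 and 11.27 against 8.91, 8.88 and 8.50 (log2 difference 2.45, SE 0.22, adjusted p = 0.000664).

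Antigen presentation differed by class. Of 30 MHC class I and peptide loading genes, 22 were higher with LPS plus IFNg (73.3%), 1 with IL4, and the median log2 difference was 2.53. H2-T24 was at 10.70, 10.96 and 10.71 with LPS plus IFNg against 5.30, 6.16 and 3.63, and H2-Q8 at 8.19, 8.40 and 8.87 against 3.22, 3.59 and 2.71 (adjusted p = 0.00114 and 0.00484). Reads of such close copies may not be assigned surely, and the large difference of H2-Q6 rests in part on IL4 values under 0 (down to -3.35). The member higher with IL4 was Calr, a chaperone that also serves the endoplasmic reticulum (-1.49, SE 0.35, adjusted p = 0.0313), which did not pass with housekeeping scaling (adjusted p = 0.146), nor with 1 library left out in any case but IL4 replicate 2. Pdia3 and Canx, chaperones of the same kind, did not pass. Of 13 MHC class II genes none was called in either direction, 3 libraries against 3, with a median of -0.10 that became 0.42 with housekeeping scaling and 1.39 with ribosomal protein scaling, where 7 were higher with LPS plus IFNg. Ctss and Lgmn, proteases that prepare peptides for class II, had intervals from -0.65 to 0.99 and from -0.87 to 0.44. The number of class II genes with an unadjusted p under 0.05 was 0.

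Among costimulatory and checkpoint genes, 9 of 28 were higher with LPS plus IFNg (32.1%). With IL4 2 were higher (7.14%, near the 6.96% of all genes). Cd274, the checkpoint ligand PD-L1, was at 12.98, 13.07 and 13.03 with LPS plus IFNg against 8.28, 5.65 and 8.63 (log2 difference 5.51, SE 0.71, adjusted p = 0.00299). Cd69, an early activation marker, was at 8.23, 8.88 and 10.02 with LPS plus IFNg against 0.00, 0.00 and 1.17. Cd86 was at 7.75, 8.02 and 8.42 with LPS plus IFNg against 0.00, 0.00 and 4.56 (adjusted p = 0.0212). Cd38, an enzyme that consumes NAD and a marker of classical activation, was at 9.93, 9.10 and 9.69 with LPS plus IFNg against 4.67, 0.00 and 0.00, with 3.90 and 5.08 unstimulated. Cd48 and the inhibitory receptor Cd200r1 were higher with IL4 (-1.35, SE 0.20, and -1.47, SE 0.33). The inhibitory receptors Sirpa and Lilrb4 did not pass. Cd200r1 did not pass with housekeeping scaling (adjusted p = 0.0959) nor without any 1 library except LPS plus IFNg replicate 1, and Cd86 did not pass without 6 libraries in turn (adjusted p up to 0.0718).

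**Figure D4:**
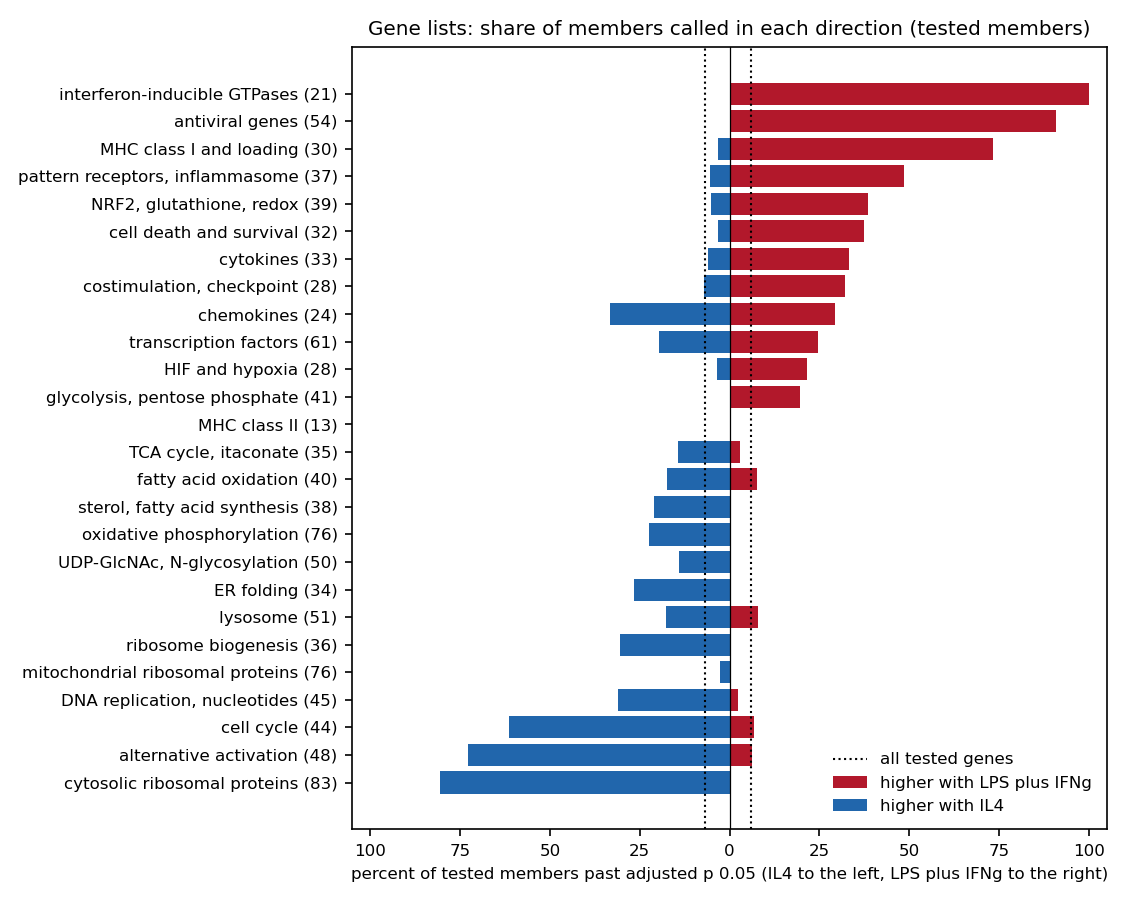
Percent of the tested members of 26 gene lists (number of members in brackets) that passed an adjusted p of 0.05 higher with LPS plus IFNg (red, to the right) and higher with IL4 (blue, to the left). Dotted lines mark the 5.91% and 6.96% over all 13615 genes; interferon-inducible GTPases reach 100% on the right and cytosolic ribosomal proteins 80.7% on the left (67 genes, or 46 with housekeeping scaling).

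Arginine is the substrate over which the 2 states are classically contrasted, since Nos2 and Arg1 use it for different ends. Of 31 arginine, polyamine and nitric oxide genes, 3 were higher with LPS plus IFNg and 6 with IL4. Beside Nos2, these 3 included Ass1, which rebuilds arginine from citrulline, at 7.54, 7.16 and 7.31 with LPS plus IFNg against 0.00, 3.41 and 4.36 (log2 difference 4.75, SE 1.16, adjusted p = 0.0374), and Gch1, the first enzyme towards the cofactor of nitric oxide synthase (2.30, SE 0.46, adjusted p = 0.0177). Asl, the next enzyme after Ass1, was at 4.18, 4.78 and 5.44 with LPS plus IFNg against 3.13, 3.52 and 2.89 and did not pass (adjusted p = 0.164). Beside Arg1, the creatine pathway stood out towards IL4. Gatm, which moves the amidino group of arginine to glycine, was at 12.80, 12.68 and 12.24 with IL4 against 9.52, 9.44 and 9.67, with 10.98 and 11.27 unstimulated between the groups (log2 difference -3.03, SE 0.20, adjusted p = 0.000244). Gamt, which completes creatine, was at 5.63, 4.78 and 4.74 with IL4 and listed at 0 with LPS plus IFNg. Oat, which turns ornithine towards proline, was higher with IL4 (-1.59, SE 0.31), and Sat1, of polyamine breakdown, did not pass (-0.15). Without any 1 LPS plus IFNg library only 1 gene of the list was higher with LPS plus IFNg, since Ass1 and Gch1 did not pass (adjusted p up to 0.103 for Ass1, which was also lost without either unstimulated library or IL4 replicate 2). Oat did not pass without unstimulated replicate 2 or LPS plus IFNg replicate 2 or 3.

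Genes of glycolysis and the pentose phosphate pathway, which break down glucose in the cytosol, were higher with LPS plus IFNg in 8 of 41 cases, with none higher with IL4 in limma (14 and 5 at an unadjusted p under 0.05). With housekeeping scaling 14 were higher with LPS plus IFNg, and the median of 0.40 became 0.92. Pfkfb3, which makes the activator of phosphofructokinase, was at 8.37, 9.10 and 8.57 with LPS plus IFNg against 5.58, 5.23 and 3.11 (log2 difference 4.04, SE 0.66, adjusted p = 0.00758). The lactate exporter Slc16a3 was at 7.73, 7.55 and 8.58 with LPS plus IFNg against 4.67, 4.83 and 5.08, and hexokinase Hk3 at 9.84, 9.68 and 9.83 against 7.90, 8.14 and 7.93. Hk2, another hexokinase, did not separate the groups, at 9.52, 9.65 and 9.51 with IL4 and 9.02, 9.78 and 9.56 with LPS plus IFNg, and both lay above 7.96 and 8.08 unstimulated. Its difference of -0.10 had an interval from -0.61 to 0.40. Ldha, which makes lactate, differed by 0.11 (interval -0.24 to 0.46) and passed with housekeeping and ribosomal protein scaling (0.63 and 1.59, adjusted p = 0.0411 and 0.000417). Leaving out either unstimulated library or LPS plus IFNg replicate 1 gave 1 gene of the list higher with IL4.

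In the TCA cycle list, which also holds cytosolic partners of the cycle, 1 of 35 genes was higher with LPS plus IFNg and 5 with IL4, with a median of -0.68 that remained negative with housekeeping scaling (-0.26, 2 genes higher with IL4) and became 0.71 with ribosomal protein scaling. Irg1, the enzyme that draws cis-aconitate off into itaconate, was at 14.96, 14.60 and 14.09 with LPS plus IFNg against 5.41, 4.29 and 6.05 with IL4 (log2 difference 9.30, SE 0.48, adjusted p = 0.000111). Idh1, the cytosolic isocitrate dehydrogenase, was at 10.61, 10.44 and 9.71 with IL4 and 8.08, 8.50 and 8.78 with LPS plus IFNg, with 11.35 and 11.42 unstimulated above both (log2 difference -1.80, SE 0.28, adjusted p = 0.00675). Suclg2, a subunit of succinyl-CoA ligase, showed the same order, at 7.34, 7.19 and 7.48, at 5.48, 4.90 and 5.64, and at 8.31 and 8.42 unstimulated. Mdh2, mitochondrial malate dehydrogenase, was at 9.72, 9.46 and 8.99 with IL4 against 7.85, 8.08 and 8.38 and did not pass with housekeeping scaling (adjusted p = 0.0919). Idh3a, a subunit of the mitochondrial isocitrate dehydrogenase, had a log2 difference of -2.25 (adjusted p = 0.0452) and did not pass with housekeeping scaling (0.099) nor with 1 library left out in any case but IL4 replicate 3 (up to 0.128). Ogdh, a subunit of a mitochondrial dehydrogenase of the cycle, did not pass (-0.22).

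Oxidative phosphorylation genes, which build the respiratory chain and ATP synthase, were higher with IL4 in 17 of 76 cases (22.4%) and with LPS plus IFNg in none (35 and 0 at an unadjusted p under 0.05), with a median of -0.68 that was -0.17 with housekeeping scaling, where 6 were higher with IL4, and 0.80 with ribosomal protein scaling, where 22 were higher with LPS plus IFNg. Atp5g3, a subunit of the membrane ring of ATP synthase, was at 10.10, 10.19 and 10.28 with IL4 against 8.14, 8.57 and 8.68 (log2 difference -1.73, SE 0.20, adjusted p = 0.00187). Its paralogs Atp5g1 and Atp5g2, which encode the same mature subunit, were at 8.01, 8.14 and 7.84 with IL4 against 5.68, 6.08 and 4.33 and at 8.82, 9.02 and 9.18 against 7.49, 7.77 and 6.92. None of these 3 genes passed with ribosomal protein scaling (adjusted p = 0.115, 0.779 and 0.392 for Atp5g1, Atp5g2 and Atp5g3), where no gene of the list was higher with IL4. Uqcr11 of complex III had a log2 difference of -1.64 (SE 0.27), while Ndufa2 of complex I (-0.37, interval -0.74 to -0.00) and cytochrome c, Cycs (0.23, interval -0.64 to 1.11), did not pass. Without IL4 replicate 1, 8 genes were higher with IL4, and 11 were without either unstimulated library or LPS plus IFNg replicate 1 or 2.

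**Figure D5:**
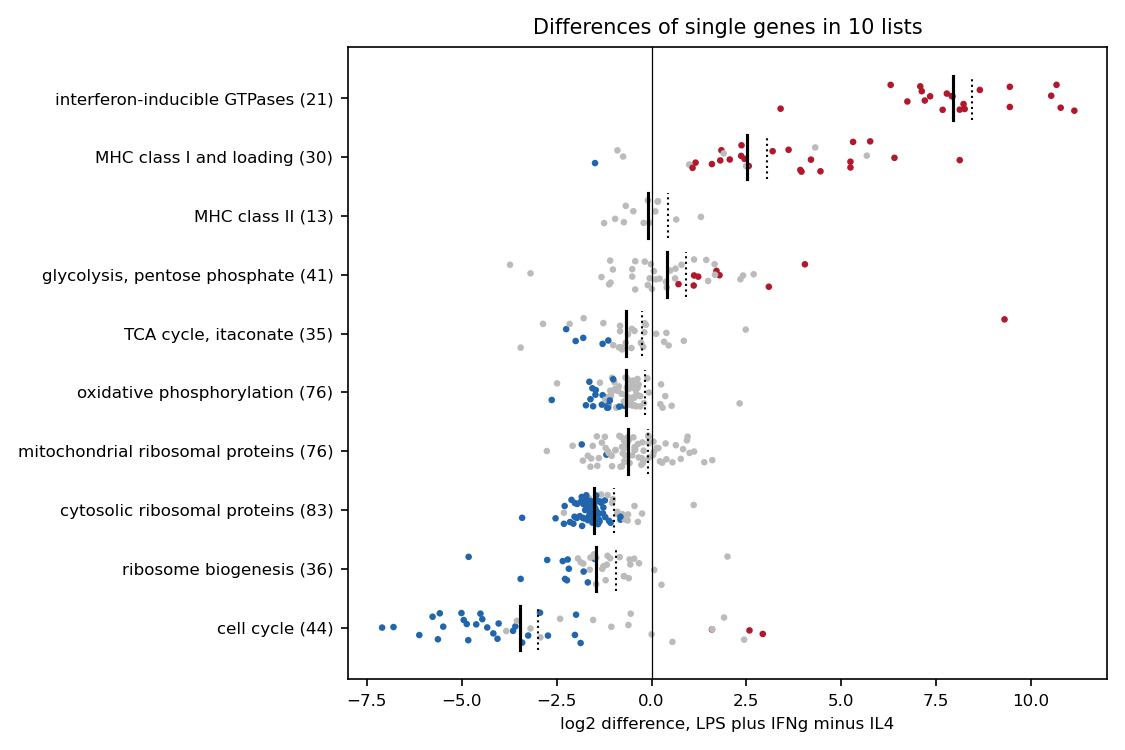
Log2 difference, LPS plus IFNg minus IL4 (horizontal axis), of every tested member of 10 gene lists, 1 point per gene. Red and blue points are called higher with LPS plus IFNg and with IL4, grey points are not past the threshold, solid lines are list medians and dotted lines medians with equal housekeeping means; the MHC class II median turns from -0.10 to 0.42 with that scaling, and that of cytosolic ribosomal proteins goes from -1.52 to -1.0.

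Genes that handle fatty acids were found on both sides. Acsl1, which activates fatty acids, was at 11.47, 11.90 and 12.16 with LPS plus IFNg against 5.30, 6.23 and 7.15 with IL4 (log2 difference 5.62, SE 0.52, adjusted p = 0.000821), whereas the fatty acid carrier Fabp4 was at 8.44, 7.86 and 7.87 against 10.28, 10.46 and 10.68 (-2.41, SE 0.24). Cpt1a, which brings fatty acids into mitochondria, was higher with LPS plus IFNg (1.11, SE 0.20, adjusted p = 0.0123). Of 40 fatty acid oxidation genes 3 were higher with LPS plus IFNg (7.5%, near the 5.91% of all genes). Higher with IL4 were 7 (17.5%, against 6.96% of all genes), or 2 with housekeeping scaling and 4 without IL4 replicate 1. The list median of -0.37 became 0.04 with housekeeping and 0.99 with ribosomal protein scaling. Fabp5 and the lysosomal lipase Lipa did not pass (0.45 and -0.62). Sterol and fatty acid synthesis genes were higher with IL4 in 8 of 38 cases and with LPS plus IFNg in none (12 and 2 at an unadjusted p under 0.05), or in 5 and 1 with housekeeping scaling, and their median of -1.22 stayed below 0 with housekeeping scaling (-0.74) but not with ribosomal protein scaling (0.23). Sqle, an early enzyme of sterol synthesis, was at 7.09, 7.96 and 7.73 with IL4 against 4.39, 4.97 and 5.53 (-2.63, SE 0.43, adjusted p = 0.00757), and Cyp51 had a log2 difference of -2.04 (SE 0.37). Without IL4 replicate 1, 4 of the synthesis genes were higher with IL4, and 5 without any other 1 library except unstimulated replicate 1. Of 18 cholesterol efflux genes, 3 were higher with LPS plus IFNg, among them Npc2, which hands cholesterol out of lysosomes (1.30, SE 0.21, adjusted p = 0.00758), and none with IL4 (4 and 2 at an unadjusted p under 0.05). Npc1, its partner, stood at 11.47, 12.16 and 13.09 with IL4 and 11.98, 11.34 and 10.45 with LPS plus IFNg and did not pass. Without unstimulated replicate 2, IL4 replicate 1 or 2, or LPS plus IFNg replicate 1 or 2, 1 efflux gene was higher with LPS plus IFNg, and without IL4 replicate 2, 1 was higher with IL4.

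Amino acid transporters also divided. Slc7a11, which imports cystine, was at 8.79, 9.58 and 9.83 against 5.84, 6.64 and 7.31 (log2 difference 2.80, SE 0.45, adjusted p = 0.00743), and Slc7a8, a carrier of neutral amino acids, was higher with LPS plus IFNg by 1.47 (SE 0.18). Slc1a5, a glutamine carrier, was at 6.93, 7.85 and 7.72 with IL4 against 4.58, 4.02 and 2.34 (-3.85, SE 0.64, adjusted p = 0.00827). Glul, glutamine synthetase, was at 8.57, 7.98 and 8.91 with IL4 against 7.10, 7.63 and 6.82, with 9.47 and 9.56 unstimulated above both groups (-1.30, SE 0.30, adjusted p = 0.0313). Kynu, of tryptophan breakdown, was at 4.78, 3.75 and 4.40 with LPS plus IFNg and listed at 0 in all other libraries. Of 37 genes in this list, 4 were higher with LPS plus IFNg and 6 with IL4, or 5 and 2 with housekeeping scaling, where Glul did not pass (adjusted p = 0.167). Without IL4 replicate 1 or 2, 2 were higher with IL4, and 3 without any other 1 library except IL4 replicate 3; Glul did not pass without 6 of the 8 libraries in turn (adjusted p up to 0.0898).

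Genes of UDP-GlcNAc synthesis and N-glycosylation, which make and attach the sugar chains of secreted and surface proteins, were higher with IL4 in 7 of 50 cases and with LPS plus IFNg in none (14 and 2 at an unadjusted p under 0.05), but with housekeeping scaling 4 were higher in each direction and the median went from -0.51 to 0.00 (0.97 with ribosomal protein scaling). Gfpt1, the entry enzyme, was at 9.88, 9.32 and 9.02 with LPS plus IFNg, 8.33, 8.51 and 8.65 with IL4 and 7.16 and 6.98 unstimulated, and its difference of 0.91 did not pass (interval 0.33 to 1.49, adjusted p = 0.0538). Pgm3, a later enzyme of the pathway, had an interval from -1.95 to 1.21. Man1a, which trims mannose in the Golgi, was at 8.13, 7.74 and 7.08 against 4.58, 5.26 and 5.22 (-2.63, SE 0.36, adjusted p = 0.00392), and St6gal1, which caps chains with sialic acid, was at 5.54, 3.52 and 4.92 with IL4 and listed at 0 with LPS plus IFNg. Man2a1, another trimming enzyme, did not pass (0.15, interval -0.23 to 0.53). Without IL4 replicate 1 or LPS plus IFNg replicate 2, 4 were higher with IL4, and without LPS plus IFNg replicate 3, 1 was higher with LPS plus IFNg.

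Oxygen sensing genes contained opposite members. Hif1a was at 9.95, 10.22 and 9.71 with LPS plus IFNg against 8.61, 8.84 and 8.81 with IL4 (log2 difference 1.20, SE 0.20, adjusted p = 0.0084). Epas1, the related factor HIF-2 alpha, was at 5.26, 4.26 and 4.36 with IL4 and listed at 0 in every LPS plus IFNg library (adjusted p = 0.0202). Bnip3, a target of these factors, was at 8.61, 9.26 and 9.07 with LPS plus IFNg against 4.50, 5.99 and 4.01, whereas its relative Bnip3l did not pass (-0.63). Of 28 hypoxia genes, 6 were higher with LPS plus IFNg (11 with housekeeping scaling) and 1, Epas1, with IL4, a call that was lost without IL4 replicate 1 or any 1 LPS plus IFNg library (adjusted p up to 0.0655).

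Redox and glutathione genes were higher with LPS plus IFNg in 15 of 39 cases (38.5%), with a median of 1.04. With IL4 2 were higher (5.13%, near the 6.96% of all genes). Prdx5, a peroxiredoxin that removes peroxides and peroxynitrite, was at 10.79, 10.83 and 11.05 with LPS plus IFNg against 6.67, 7.18 and 6.94, with 8.65 and 8.66 unstimulated between the groups (log2 difference 3.96, SE 0.18, adjusted p = 8.74e-05). Sod2, the mitochondrial superoxide dismutase, was at 12.07, 12.37 and 12.11 with LPS plus IFNg against 8.47, 9.06 and 8.69. Hmox1, which breaks down haem, had a log2 difference of 2.37 (SE 0.35). The members higher with IL4 were glutathione peroxidase Gpx1 (-1.44, SE 0.16) and the metallothionein Mt1 (-1.30, SE 0.18). Cyba, a subunit of the phagocyte oxidase, did not differ by more than its interval, -0.41 to 0.32. Fth1, the ferritin heavy chain that stores iron, was at 14.50, 15.86 and 14.79 with LPS plus IFNg against 12.40, 12.12 and 12.51 with IL4 (2.71, SE 0.39, adjusted p = 0.00484). Tfrc, the transferrin receptor that takes iron up, was at 6.93, 7.70 and 8.08 with LPS plus IFNg against 11.33, 11.26 and 11.18 (-3.68, SE 0.30, adjusted p = 0.000511), with 9.88 and 10.35 unstimulated between. Ferritin light chain Ftl1 did not pass (0.04, interval -0.61 to 0.68), and of the 19 iron genes 3 were higher with LPS plus IFNg and 2 with IL4.

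Prostaglandin synthases were on opposite sides too. Ptgs2, the inducible cyclooxygenase, was at 11.40, 11.51 and 11.41 with LPS plus IFNg against 3.47, 4.19 and 5.26 (log2 difference 7.13, SE 1.04, adjusted p = 0.00485), and Ptgs1, the constitutive form, was at 5.23, 0.00 and 3.27 against 7.81, 7.95 and 8.81 (-5.36, SE 1.21, adjusted p = 0.0278). The Ptgs1 call was lost without 6 of the 8 libraries in turn (adjusted p up to 0.0917). Pla2g7, which inactivates platelet activating factor, was at 12.75, 12.98 and 13.27 with LPS plus IFNg against 10.23, 9.30 and 10.43. Among 42 adhesion, integrin and matrix genes, 7 were higher with LPS plus IFNg (4 without LPS plus IFNg replicate 3) and 13 with IL4. Itgal and Itgax, alpha chains that pair with the same beta chain, were on opposite sides, Itgal at 10.97, 10.99 and 11.00 with LPS plus IFNg against 8.14, 8.87 and 8.69 and Itgax at 7.04, 6.70 and 6.19 against 9.99, 10.47 and 9.96. Itgam, a further alpha chain of that group, did not pass (-0.36, interval -0.94 to 0.22). F3, the tissue factor that starts clotting, was at 6.14, 7.70 and 7.31 with IL4, 4.61 and 4.01 unstimulated, and listed at 0 with LPS plus IFNg (adjusted p = 0.00125). Thbs1, a matrix glycoprotein, was higher with LPS plus IFNg (2.45, SE 0.34).

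Of 32 genes of cell death and survival, 12 were higher with LPS plus IFNg (21 with housekeeping scaling) and 1 with IL4. Cflar, which blocks death receptor signalling, was at 11.51, 11.91 and 12.84 with LPS plus IFNg against 8.49, 8.79 and 8.01 (3.66, SE 0.36, adjusted p = 0.00108). Bcl2 was the member higher with IL4 (-2.28, SE 0.56, adjusted p = 0.0371), did not pass with housekeeping scaling (0.0803) and was lost without 6 of the 8 libraries in turn (up to 0.114). Lysosomal genes were higher with LPS plus IFNg in 4 of 51 cases (7.84%, near the 5.91% of all genes). Higher with IL4 were 9 (17.6%, against 6.96% of all genes). With housekeeping scaling the counts were 6 and 2, and the median of -0.21 became 0.30 (1.27 with ribosomal protein scaling). The proteases Ctsc and Ctsh were at 11.43, 11.25 and 11.57 and at 9.54, 9.47 and 9.59 with LPS plus IFNg, against 7.40, 7.66 and 7.01 and 6.45, 6.19 and 6.79 with IL4. Of 9 proton pump genes in the list, 4 were higher with IL4 and 5 did not pass, whereas 2 were higher with IL4 with housekeeping scaling, and 2 with IL4 and 5 with LPS plus IFNg with ribosomal protein scaling. Among the former, Atp6v0a1 was at 7.58, 7.38 and 7.74 with LPS plus IFNg against 11.63, 11.68 and 11.11 and Atp6v0d2 at 8.45, 8.53 and 8.33 against 12.13, 11.34 and 12.64 (-3.91, SE 0.24, and -3.61, SE 0.31). The protease Ctsb, the most abundant lysosomal gene, did not pass (0.15, interval -0.57 to 0.88), and neither did Lamp2. Without either unstimulated library or LPS plus IFNg replicate 2, 4 lysosomal genes were higher with IL4. Among 24 purinergic and NAD-related genes, 5 were higher with LPS plus IFNg (3 with a mean of at least 5 required), including the adenosine receptor Adora2a at 5.30, 4.40 and 6.11 against 0 in every IL4 library, and Nampt, of NAD synthesis, at 12.34, 12.25 and 12.04 against 9.71, 9.89 and 9.46. The oxysterol receptor Gpr183 was the member higher with IL4 (-4.78, SE 1.20, adjusted p = 0.0411), and did not pass with either of the other scalings or without any 1 library except LPS plus IFNg replicate 3.

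Genes of mitosis and the cell cycle were higher with IL4 in 27 of 44 cases (61.4%). With LPS plus IFNg 3 were higher (6.82%, near the 5.91% of all genes). The median was -3.48 (-3.22 without members that had a whole group at 0). Ccna2, cyclin A2, was at 7.21, 7.12 and 6.97 with IL4 and 7.72 and 7.74 unstimulated, and listed at 0 in every LPS plus IFNg library (adjusted p = 0.000293). Ube2c, which marks cyclins for destruction, was at 6.03, 5.94 and 6.40 with IL4 and 6.77 and 7.22 unstimulated, and Foxm1, a factor that drives mitotic genes, at 5.61, 6.31 and 5.40 with IL4 and 5.36 and 5.20 unstimulated. Both were listed at 0 with LPS plus IFNg. For these 3 genes the IL4 libraries lay near the unstimulated ones and the LPS plus IFNg libraries stood apart. The 3 members higher with LPS plus IFNg do not mark mitosis. Ccnd2 and Ccnd3, D-type cyclins that act at the start of the cycle, were at 9.88, 10.38 and 9.87 with LPS plus IFNg against 6.86, 6.76 and 7.72 and at 6.85, 6.50 and 6.69 against 4.28, 4.03 and 4.01, and Cdkn1a, the inhibitor p21 that halts the cycle, was at 13.60, 13.41 and 13.12 against 12.06, 10.95 and 12.36 (1.59, SE 0.37, adjusted p = 0.0306). The Cdkn1a call was lost without 6 of the 8 libraries in turn (adjusted p up to 0.0913). Ccnd1, the most abundant cyclin of the list, did not pass (-0.55, interval -1.16 to 0.07). Of 45 replication and nucleotide genes, 14 were higher with IL4 and 1 with LPS plus IFNg, with a median of -2.03 (-1.85 without members that had a whole group at 0). Mcm5, of the replicative helicase, was at 5.30, 6.01 and 7.13 with IL4 and Tyms, thymidylate synthase, at 3.90, 4.99 and 6.12; both were listed at 0 with LPS plus IFNg. Uhrf1, which maintains DNA methylation, was at 7.88, 9.25 and 7.02 with IL4 against 3.27, 2.92 and 2.93, while Pcna and Dnmt1 did not pass (-0.63 and -0.97). With the least abundant genes left out, 24 of the replication genes were higher with IL4. Summed neutrophil and granulocyte precursor markers were also higher with IL4 (10.22 to 10.94 on the log2 scale) than with LPS plus IFNg (8.99 to 9.30), and their part in these counts was not tested.

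Cytosolic ribosomal protein genes were higher with IL4 in 67 of 83 cases (80.7%) and with LPS plus IFNg in none (74 and 0 at an unadjusted p under 0.05), with a median of -1.52; with housekeeping scaling 46 were higher with IL4 and the median was -1.0, and with ribosomal protein scaling, which sets their mean equal, 4 were higher in each direction. The differences of the called genes ran from -3.41 to -0.82, with Rpl10a at 7.51, 7.23 and 6.45 with LPS plus IFNg against 9.97, 9.53 and 9.29 and Rpl36a at 7.94, 8.87 and 8.65 against 10.75, 11.01 and 10.62. Rps9 and Rpl35 did not pass (-1.16 and -1.33). Eef1a1, the elongation factor that brings tRNA to the ribosome, was at 9.79, 10.01 and 9.96 with LPS plus IFNg against 12.43, 12.55 and 12.37 (-2.53, SE 0.15, adjusted p = 0.000174). Of 36 ribosome biogenesis genes, 11 were higher with IL4 (6 with housekeeping scaling; 7 without either unstimulated library, IL4 replicate 3 or LPS plus IFNg replicate 2 or 3) and 0 with LPS plus IFNg (24 and 0 at an unadjusted p under 0.05), and their median of -1.46 became -0.94 with housekeeping scaling and 0.02 with ribosomal protein scaling. Dkc1, which modifies ribosomal RNA, was at 6.58, 6.77 and 5.09 with LPS plus IFNg against 9.57, 9.52 and 9.70 (-3.45, SE 0.43, adjusted p = 0.00255). Of 76 mitochondrial ribosomal protein genes, 2 were higher with IL4 and none with LPS plus IFNg (18 and 0 at an unadjusted p under 0.05), 0 and 0 with housekeeping scaling, and their median of -0.62 was -0.10 with housekeeping scaling and 0.87 with ribosomal protein scaling; without unstimulated replicate 2, 4 were higher with IL4, and 1 without IL4 replicate 1 or 2 or LPS plus IFNg replicate 2 or 3. Wars, the tryptophan tRNA synthetase that interferon is known to induce, was the member of the translation and tRNA list that was higher with LPS plus IFNg, at 7.66, 8.54 and 7.65 against 5.23, 5.72 and 5.53 (2.46, SE 0.34, adjusted p = 0.00406), while 5 of the 38 were higher with IL4, or 2 with housekeeping scaling. These 5 became 2 or 3 without any 1 library except IL4 replicate 3.

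Genes of folding in the endoplasmic reticulum were higher with IL4 in 9 of 34 cases and with LPS plus IFNg in none (17 and 3 at an unadjusted p under 0.05), or in 4 and 3 with housekeeping scaling, where the median of -0.58 was -0.06, and it was 0.90 with ribosomal protein scaling. Pdia4, a disulfide isomerase, was at 11.72, 12.32 and 11.65 with IL4 against 9.59, 9.34 and 9.65, with 9.82 and 9.60 unstimulated at the level of LPS plus IFNg (-2.37, SE 0.22, adjusted p = 0.000814). Hspa5, the main chaperone of that compartment, did not pass (-0.94, interval -1.57 to -0.31, adjusted p = 0.0645). Without unstimulated replicate 2 or LPS plus IFNg replicate 2, 5 of the list were higher with IL4.

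Markers of other cell types were compared in the same fit. Of 16 neutrophil and granulocyte precursor markers, 4 were higher with IL4 and none with LPS plus IFNg (7 and 1 at an unadjusted p under 0.05), and the summed list, lowest with LPS plus IFNg, was highest in the unstimulated libraries at 11.31 to 11.54. S100a8 was at 8.38, 8.33 and 8.18 with IL4 against 6.63, 5.89 and 6.30. S100a9 was at 9.99, 8.61 and 9.08 with IL4 against 6.28, 6.75 and 7.23. Neither passed with ribosomal protein scaling (adjusted p = 0.147 and 0.0516), where 2 of the list were higher in each direction. Prtn3 and Fcnb were at 0 in all 6 libraries. Osteoclast markers include genes of macrophage fusion. They were higher with IL4 in 6 of 9 and with LPS plus IFNg in none (6 and 0 at an unadjusted p under 0.05). With ribosomal protein scaling 3 were higher in each direction. The list summed to 12.59 to 12.99 with IL4, 10.30 to 10.80 with LPS plus IFNg and 12.20 to 12.31 unstimulated. Calcr and Oscar were listed at 0 throughout. Tm7sf4, the fusion protein DC-STAMP, was at 7.16, 6.78 and 7.74 with IL4 against 4.12, 0.75 and 3.27, and Nfatc1, the master factor of osteoclasts, did not pass (0.60). The count of 6 fell to between 1 and 3 when any 1 library except LPS plus IFNg replicate 1 was left out, and Tm7sf4 was lost without unstimulated replicate 2 or IL4 replicate 3 (adjusted p up to 0.0547). Of 14 dendritic markers 2 were higher with LPS plus IFNg and 4 with IL4, among them Zbtb46 at 4.90, 3.97 and 4.62 against 0 in every LPS plus IFNg library. What these cell types contribute to the other differences was not tested. The erythroid and megakaryocyte list summed to 8.86 to 10.40 with IL4 and 8.01 to 8.61 with LPS plus IFNg. Pf4, which is also in the chemokine list, held the highest value of this list in each library. Pf4 was at 10.34, 8.82 and 9.15 with IL4 against 7.65, 8.46 and 8.11 and did not pass (adjusted p = 0.0746). Mast cell, lymphocyte and erythroid lists had no called member (1 and 1, 1 and 0, and 0 and 1 higher with LPS plus IFNg and with IL4 at an unadjusted p under 0.05; at most 1 in each direction with 1 library left out, apart from 3 erythroid genes higher with IL4 without IL4 replicate 2), and of 12 fibroblast markers 1 was higher with IL4, the actin gene Acta2 (-2.86, SE 0.42), while the collagen gene Col1a2, at 9.66 to 10.64 in the 6 libraries, did not pass.

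With the deposited scaling the data bound the difference closely for part of the genes. In 1084 of the 13615 genes (7.96%), with a mean above 0 in both groups, the 95% interval of the difference lay between -1 and 1, that is within a doubling either way. They include 18 of the genes described above, among them Slc7a2, Klf4, Hk2 and Tlr4. The bound holds for that scaling alone: all 1084 were called higher with LPS plus IFNg with ribosomal protein scaling, 1073 of them by more than 1, and 85 with housekeeping scaling. For the other genes with a mean above 0 in both groups that did not pass, the interval reached beyond a doubling. A difference of that size is therefore not excluded for them with 3 libraries against 3. Genes with a mean of 0 or below in either group were not counted here.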

How the data were processed

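Gene expression was measured by 3′ end sequencing in 8 libraries of bone-marrow derived macrophages: 2 unstimulated, 3 with IL4 and 3 with LPS plus IFNg. Values are log2 expression that the authors had quantile-normalised before they deposited the table. TopHat and the mm9 build are named per the submitters' processing notes; the sources used here give neither the handling of zero counts nor the counting tool or the depth. Quantile normalisation gives all libraries 1 distribution, so a shift shared by most genes cannot be seen, and differences of genes near 0 depend on how zeros were set.

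Groups were taken from the header line of the table. Of 20258 rows with a symbol, 6643 had 1 value in every library and were left out; 1 row without a symbol was not used. The other 13615 were fitted with limma 3.58.1 in R 4.3.3 on 3 group means over all 8 libraries, with an intensity trend (5 residual and 2.31 prior degrees of freedom), and the contrast LPS plus IFNg minus IL4 was tested two-sided with Benjamini-Hochberg adjustment at 0.05. The script was tested on simulated data. Alternatives were the spread model, the samples in the fit, filters on low values, 2 scalings, a replicate block, array weights, thresholds and leaving out each library. Of the rows tested, 1421 share all their values with another row, and 1407 of these did not pass. Some are close copies, such as Tgtp1 and Tgtp2. Others are unrelated genes with values at or near 0 in most libraries, such as Prtn3 and Tbc1d10c.

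The genes in the text come from the 12 largest differences in each direction without overlap of the groups, from each gene list up to 4 called members per direction and the 2 most abundant members not called, and from a set of classical activation genes; Prtn3, Fcnb, Tgtp1 and Tgtp2 were added after their values were seen. The members of the comparison and the lists were chosen with earlier results of these data known. Promoters are from the RefSeq table of GRCm38.p6 and were used for sequence only. Results for some genes are not reported here.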

Additional observations from a re-analysis of the deposited data

How the results depend on the processing

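Without 1 library the fit called 580 to 774 genes higher with LPS plus IFNg and 658 to 804 higher with IL4, against 804 and 948. The scaling moved the counts most: 1408 and 526 with equal housekeeping means, where 804 and 525 of the original calls remained, and 4762 and 291 with equal ribosomal protein means, which takes those genes as unchanged. At an adjusted p of 0.01, 427 and 379 were called. The other alternatives gave 629 to 924 and 691 to 1139. Same-numbered libraries of the groups did not deviate together (r = 0.0269, -0.0791 and -0.0524 over genes), so the numbers were not taken as pairs; with the replicate block 629 and 691 genes were called. Of 159 called genes named, 140 passed whichever library was left out. Among the called genes named, signs reversed only with ribosomal protein scaling. The log2 differences became positive for Cd200r1 (0.01), Cd48 (0.13), Glul (0.18), Gpx1 (0.05), Mdh2 (0.20) and Mt1 (0.18). Some stayed negative there but did not pass, such as Ccr2 (-0.55), Clec7a (-0.69), Cyp51 (-0.56), Idh1 (-0.32), Oat (-0.10), Sqle (-1.14) and Suclg2 (-0.52). With that scaling these genes not called before passed with a reversed sign: Canx (0.73), Col1a2 (1.47), Cyba (1.43), Hk2 (1.38) and Itgam (1.12). So did Lgmn (1.27), Lipa (0.86), Ndufa2 (1.11), Ogdh (1.26), Pcna (0.86), Sat1 (1.34), Sirpa (0.95), Tlr4 (1.26) and Zeb2 (1.30). Other genes not called before changed sign there without passing, such as Bnip3l (0.86) and Ccnd1 (0.94). With housekeeping scaling some uncalled genes also changed sign without passing, such as Hk2 (0.41) and Tlr4 (0.29). Each of the 2 scalings shifts all values of a library other than 0 by the same amount. Which scaling holds was not tested. Depth is not known, and values near 0 limit what can be said of weakly expressed genes.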
